A study of Mus musculus with 16 samples.

Results

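Major urinary protein (Mup) genes were examined in livers of Trim28MommeD9/+ and Trim28+/+ male mice, through every probe of the Illumina MouseRef-8 v2.0 array whose annotated symbol is Mup1, Mup2, Mup3, Mup4 or Mup5. These probes, 5 of 25697, belong to 2 of the 16593 genes with a symbol on the array, Mup2 (2 probes) and Mup5 (3 probes), and no probe carried the symbol Mup1, Mup3 or Mup4 in the annotation used here. The labels assign 7 arrays to Trim28MommeD9/+ and 9 arrays to Trim28+/+. By the study's account the mice were male littermates of 4 weeks, from a line kept in the FVB/NJ background. MommeD9 is a chemically induced splice-site mutation of Trim28, and the colony that both genotypes come from carries a GFP transgene. The study describes 4 mice per genotype with technical replicates. Which arrays come from 1 mouse is not stated, so arrays were the unit of every test and the p-values are too small where arrays share a mouse.

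Major urinary proteins are small lipocalins that the liver secretes and the kidney passes into urine, where they carry volatile pheromones and, for some members, act as scent signals themselves. Their liver transcripts are among the most abundant of the male mouse and depend on pulsed growth hormone, which acts through the receptor, JAK2 and the transcription factor STAT5b, with androgen, thyroid hormone and glucocorticoid as further inputs. In mouse liver, KRAB zinc finger proteins encoded at the Rsl locus repress Mup and other male-biased genes, and TRIM28 is the corepressor that KRAB domains recruit. The comparison addresses how a reduced dose of TRIM28 bears on this gene family in young liver.

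In the RefSeq annotation of GRCm38.p6, Mup genes form 1 cluster on chromosome 4, with 22 genes and 23 pseudogenes between 59956804 and 62150841, a span of 2.194 Mb. Mup2 lies at chr4:60135913-60139977 and Mup5 at chr4:61831319-61858043. Mup1 (chr4:60498012-60501960), Mup3 (chr4:62083476-62087317) and Mup4 (chr4:59956804-59960667) are the members with no annotated probe. Probes for 3 other Mup genes were read beside the members. These are Mup6 (chr4:60003481-60007274), Mup20 (chr4:62011337-62054143), which encodes the male pheromone darcin, and Mup21 (chr4:62147832-62150841). The genes are near-identical copies in many cases, so the signal of one probe cannot be told apart from that of transcripts that share its sequence, and each value below belongs to a probe rather than with certainty to 1 gene.

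The closeness of the copies is shown by the promoters of the Mup genes that have both a probe and an entry in the RefSeq promoter table (GRCm38.p6, 250 bases before to 50 after the start that the table uses). The table held 5 of the 8 genes above, 3 of them members (Mup2, Mup3 and Mup4). The promoters of Mup2 (chr4:60139807-60140106, minus strand), Mup6 (chr4:60003231-60003530, plus strand) and Mup21 (chr4:62150792-62151091, minus strand) are given 5′ to 3′, with the TATA element TATATAA in capitals.
Mup2: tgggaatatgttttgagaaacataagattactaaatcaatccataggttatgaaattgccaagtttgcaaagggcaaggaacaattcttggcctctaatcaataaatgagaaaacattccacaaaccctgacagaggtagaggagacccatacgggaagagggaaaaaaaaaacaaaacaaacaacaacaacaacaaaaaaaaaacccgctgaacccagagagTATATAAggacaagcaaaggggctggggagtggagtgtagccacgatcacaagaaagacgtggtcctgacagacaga
Mup6: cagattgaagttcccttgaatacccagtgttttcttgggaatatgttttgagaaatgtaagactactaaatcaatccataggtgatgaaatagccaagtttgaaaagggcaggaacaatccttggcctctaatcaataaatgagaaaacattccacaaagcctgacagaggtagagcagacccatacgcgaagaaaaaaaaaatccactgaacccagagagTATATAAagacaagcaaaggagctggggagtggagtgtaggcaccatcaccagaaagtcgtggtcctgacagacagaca
Mup21: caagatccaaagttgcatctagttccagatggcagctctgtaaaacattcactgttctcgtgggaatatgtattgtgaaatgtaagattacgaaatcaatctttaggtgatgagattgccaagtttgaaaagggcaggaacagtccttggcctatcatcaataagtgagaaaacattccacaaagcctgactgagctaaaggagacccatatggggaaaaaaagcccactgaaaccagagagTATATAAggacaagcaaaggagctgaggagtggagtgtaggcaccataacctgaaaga

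The Mup2 promoter was identical to that of Mup6 at 93.2% of 263 aligned bases and to that of Mup21 at 87.5% of 240. Mup6 and Mup21 were identical at 85.8% of 275. The element TATATAA, chosen after the sequences had been read and searched on both strands, was present in 13 of 14 Mup promoters of the table, all but Mup7, against 3.24% of all 32851 promoters. It began 27 bases before the table's start of Mup2, 29 before that of Mup6 and 8 before that of Mup21. The starts of Mup6 and Mup21 are the ends of the gene bounds given above, and that of Mup2 (chr4:60139856) lies 121 bases inside its gene bounds, so its element does too. The STAT5 motif TTCNNNGAA was found in 0 of 14 Mup promoters and 8.30% of all promoters, searched on both strands. The C/EBP motif TTGCNNAA was found in 0 of 14 and 10.8%, and the glucocorticoid response element in 0 of 14 and 0.00913%. These counts cover this window only. The Mup promoters compared above are close copies, so counts over the 14 are not counts of independent sequences.

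Arrays of the 2 genotypes differed in signal before any normalization. Their mean intensity was 205 to 270 in Trim28MommeD9/+ and 273 to 344 in Trim28+/+. The constant that the authors had subtracted as background fell into a low set (37.6 to 42.7), made up of all Trim28MommeD9/+ arrays and Trim28+/+ replicate 1, and a high set (48.8 to 56.2) of the remaining 8 Trim28+/+ arrays. Genotype and background set can therefore be compared apart only through Trim28+/+ replicate 1. Trim28 itself had a normalized log2 intensity of 8.62 ± 0.07 (SD, n = 7) in Trim28MommeD9/+ and 9.06 ± 0.23 (SD, n = 9) in Trim28+/+, a difference of -0.44 on the log2 scale (standard error 0.09, limma adjusted p = 0.00256). Trim28+/+ replicate 1 had the highest Trim28 value of the 16 arrays (9.39).

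Of the 5 member probes, 4 were detected (detection p under 0.01 on at least 3 arrays) and tested with limma among 10291 probes. Lower expression in Trim28MommeD9/+ was called for 2 of these 4, 1 of Mup2 and 1 of Mup5, where 12.2% of all probes tested were called lower (Benjamini-Hochberg adjusted p under 0.05). None was called higher, where 11.1% of all probes were. The called probes were 1.85-fold and 2.18-fold lower. The other 2 member probes of the same genes, 1 very bright and 1 near background, had log2 fold changes of -0.12 and -0.02 and did not pass the test. In whole liver, fewer cells of a type and less RNA per cell cannot be told apart.

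Mup2 probe ILMN_3143404 had normalized log2 intensities of 11.70, 11.67, 10.38, 10.51, 10.41, 10.09 and 10.77 on Trim28MommeD9/+ replicates 1 to 7, against 10.62, 12.11, 11.92, 11.70, 11.81, 10.83, 12.29, 12.54 and 11.32 on Trim28+/+ replicates 1 to 9. In Trim28MommeD9/+, replicates 1 and 2 were high and within the Trim28+/+ values, 4 of 7 arrays lay below every Trim28+/+ array, and the genotypes overlapped. The mean was 10.79 ± 0.65 (SD, n = 7) in Trim28MommeD9/+ and 11.68 ± 0.64 (SD, n = 9) in Trim28+/+, a difference of -0.89 on the log2 scale (standard error 0.29, limma adjusted p = 0.0318). A two-sided exact permutation test of this probe over all 11440 splits of the arrays gave an unadjusted p of 0.0191. On the linear scale deposited by the authors the probe averaged 1943 ± 976 in Trim28MommeD9/+ and 3518 ± 1432 in Trim28+/+, a ratio of 0.552. The call depended on single arrays. It was lost without Trim28MommeD9/+ replicate 3 (adjusted p = 0.0608), 4 (0.0609), 5 (0.0668), 6 (0.0739) or 7 (0.05004) and without Trim28+/+ replicate 2 (0.0505), 7 (0.0565) or 8 (0.0607).

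Mup5 probe ILMN_3158509 had log2 intensities of 9.85, 9.72, 8.69, 8.91, 9.37, 8.32 and 9.17 on Trim28MommeD9/+ replicates 1 to 7, against 8.88, 10.35, 10.16, 10.03, 10.14, 10.02, 11.02, 11.23 and 10.58 on Trim28+/+ replicates 1 to 9. Replicate 1 was the low Trim28+/+ array, and the other 8 of 9 lay above every Trim28MommeD9/+ array. The mean was 9.15 ± 0.55 (SD, n = 7) in Trim28MommeD9/+ and 10.27 ± 0.68 (SD, n = 9) in Trim28+/+, a difference of -1.12 on the log2 scale (standard error 0.28, limma adjusted p = 0.00854). The exact permutation p was 0.00428, unadjusted. The authors' scaled values averaged 576 ± 219 in Trim28MommeD9/+ and 1329 ± 579 in Trim28+/+, a ratio of 0.434. The call was kept with any 1 of the 16 arrays left out (adjusted p = 0.00049 to 0.0227).

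For both called probes, genotype and background set could be told apart only through Trim28+/+ replicate 1. For Mup2 ILMN_3143404, Trim28+/+ replicates 6 (10.83) and 9 (11.32), of the high set, also lay inside the Trim28MommeD9/+ values. Trim28+/+ replicate 1, which shares the low set with the Trim28MommeD9/+ arrays, read 10.62 for Mup2 and 8.88 for Mup5, inside the Trim28MommeD9/+ values. With background set blocked in the fit, the estimate for each probe is the Trim28MommeD9/+ mean minus this 1 array. It was 0.17 (standard error 0.55, limma adjusted p = 0.984) for Mup2 and 0.27 (standard error 0.47, limma adjusted p = 0.959) for Mup5, of opposite sign to the values above. Among all 10291 probes that fit called 2 higher and 1 lower. The calls were also lost when arrays of the same number were blocked (Mup2 -0.82, adjusted p = 0.092, and Mup5 -0.94, adjusted p = 0.0678) and when the most alike arrays of a genotype were treated as presumptive technical pairs (Mup2 -0.86, adjusted p = 0.0902, and Mup5 -1.03, adjusted p = 0.0661).

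Mup2 probe ILMN_3065459 was among the brightest on the array, between rank 15 and rank 53 of all probes on each array. It read 14.11, 14.18, 13.82, 13.89, 13.94, 13.65 and 14.06 on the Trim28MommeD9/+ arrays, against 13.85, 14.21, 14.09, 14.03, 14.11, 13.85, 14.22, 14.37 and 13.88 on the Trim28+/+ arrays, and the genotypes overlapped over most of their range. The mean was 13.95 ± 0.18 (SD, n = 7) in Trim28MommeD9/+ and 14.07 ± 0.18 (SD, n = 9) in Trim28+/+, with a log2 fold change of -0.12 (standard error 0.08, limma adjusted p = 0.327). Its lowest and highest arrays differed 1.65-fold, where those of the other Mup2 probe differed 5.45-fold. Whether brightness limited its range was not tested. Without normalization between arrays, a setting in which 7555 of all probes were called lower and 9 higher, it was called lower (-0.54, adjusted p = 0.000118).

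Mup5 probe ILMN_3079257 was near background, with intensities before correction of 57.2 to 83.4 in Trim28MommeD9/+ and 66.4 to 132 in Trim28+/+. It was detected on 7 of 7 Trim28MommeD9/+ and 7 of 9 Trim28+/+ arrays, and replicates 6 and 9 were the Trim28+/+ arrays without detection. Its log2 intensity was 5.71 ± 0.33 (SD, n = 7) in Trim28MommeD9/+ and 5.73 ± 0.53 (SD, n = 9) in Trim28+/+ (log2 fold change -0.02, standard error 0.21, limma adjusted p = 0.956). The remaining Mup5 probe, ILMN_1226884, was not detected on any array, with detection p-values of 0.659 to 0.981 in Trim28MommeD9/+ and 0.927 to 0.997 in Trim28+/+, and was not tested. The Mup5 probes therefore gave 1 called value, 1 that did not pass and 1 that could not be measured.

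**Figure D1:**
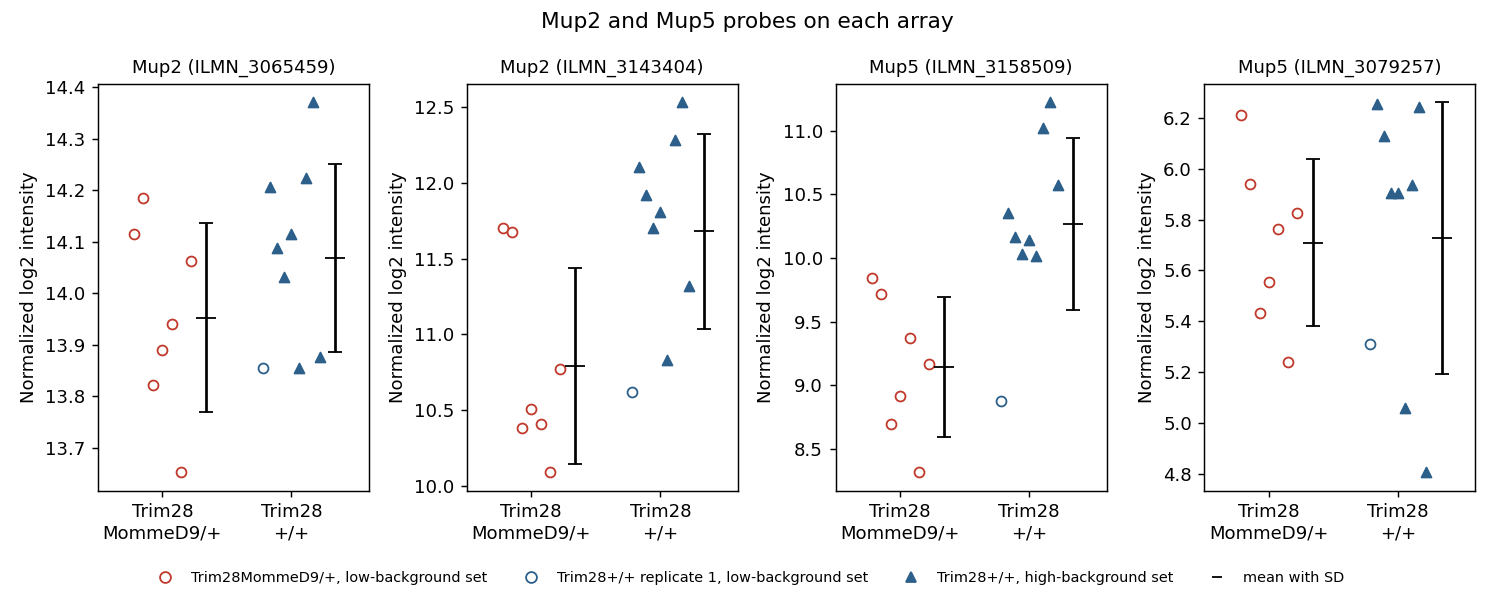
Normalized log2 intensity (vertical axes, a separate scale in each panel) of the 4 tested Mup2 and Mup5 probes on each array, with Trim28MommeD9/+ left and Trim28+/+ right, open circles for the low-background set, filled triangles for the high-background set and bars for the mean ± SD. For Mup5 (ILMN_3158509) 8 of 9 Trim28+/+ arrays lie above every Trim28MommeD9/+ array, and Trim28+/+ replicate 1 lies among the Trim28MommeD9/+ arrays at 8.88.

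The 3 other Mup genes with probes were detected on every array. Mup20, the darcin gene, read 9.82, 9.77, 8.32, 8.88, 9.28, 8.30 and 9.09 in Trim28MommeD9/+, against 8.82, 10.70, 10.41, 10.32, 10.60, 9.36, 10.90, 11.20 and 9.40 in Trim28+/+. Replicates 1, 6 and 9 were the Trim28+/+ arrays inside the Trim28MommeD9/+ range. The mean was 9.07 ± 0.62 (SD, n = 7) in Trim28MommeD9/+ and 10.19 ± 0.81 (SD, n = 9) in Trim28+/+, a 2.18-fold lower value (log2 fold change -1.12, standard error 0.32, limma adjusted p = 0.0189). Mup20 was kept in every leave-one-out fit (adjusted p = 0.0033 to 0.047). It was lost with a robust fit (adjusted p = 0.0968), the replicate block (0.0518) and presumptive technical pairs (0.0661).

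Mup6 had a log2 intensity of 13.10 ± 0.27 (SD, n = 7) in Trim28MommeD9/+ and 13.43 ± 0.32 (SD, n = 9) in Trim28+/+ (log2 fold change -0.34, standard error 0.13, limma adjusted p = 0.0761) and did not pass the test. Of 30 alternative settings it passed in 3. These were the fit without Trim28+/+ replicate 1 (-0.41, limma adjusted p = 0.0189), array weights (-0.39, 0.0154) and no normalization between arrays (-0.74, 0.000223). Mup21 ran from 9.84 to 11.44 in Trim28MommeD9/+ and from 9.25 to 11.67 in Trim28+/+. Its means were 10.52 ± 0.74 (SD, n = 7) in Trim28MommeD9/+ and 10.71 ± 0.89 (SD, n = 9) in Trim28+/+ (log2 fold change -0.19, standard error 0.37, limma adjusted p = 0.738). With background set blocked, Mup20 stood at 0.24 and Mup6 at 0.22, turned in sign as Mup2 and Mup5 were, and Mup21 stood at -0.38, all 3 with adjusted p over 0.9. No Mup probe separated the genotypes without overlap, as 2.32% of all probes did, 1.14% with Trim28MommeD9/+ below Trim28+/+.

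Mup probes varied together from array to array. Over the 16 deviations from the genotype means, the 2 Mup2 probes had a Pearson r of 0.928, and ILMN_3143404 of Mup2 had an r of 0.950 with Mup6 and 0.936 with Mup20. Mup5 (ILMN_3158509) had an r of 0.837 with that Mup2 probe and 0.526 with the dim Mup5 probe. Mup21 stood furthest from Mup5 ILMN_3158509 (0.269), where its r with the dim Mup5 probe was 0.820. These values are descriptions over arrays that may share mice and, for the Mup probes, sequence.

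The closeness of Mup values between arrays that were most alike over all probes differed by probe. The 7 presumptive pairs, chosen by correlation over all probes, include Trim28MommeD9/+ replicates 1 and 2 (the high values of both genes) and Trim28+/+ replicates 6 and 9. Within these pairs Mup21 differed by a median of 0.044 on the log2 scale, where the 50 other pairs of arrays of 1 genotype differed by a median of 1.16. For ILMN_3143404 of Mup2 the medians were 0.290 within pairs, where the largest difference was 0.724, and 0.810 in other pairs. For ILMN_3158509 of Mup5 they were 0.378 within pairs and 0.671 in other pairs, and the largest difference within a pair, 1.08, was above the median of the other pairs. Because the pairs were chosen on the same arrays, these medians are a description.

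Among genes outside the family, the likeness to each member was ranked by Pearson r over the same 16 deviations, with its brightest probe. The nearest to Mup2 (ILMN_3065459) were C9 through its probe ILMN_2937379, a terminal complement component (r = 0.907, Spearman's rho 0.927), Pmm2, a phosphomannomutase of protein glycosylation (0.901, rho 0.877), and Lurap1l (0.899, rho 0.902). None of the 3 passed the test between genotypes, with log2 fold changes of -0.49, -0.13 and -0.20. The brighter C9 probe, ILMN_2937375, had a log2 fold change of 0.23 and did not pass either (limma adjusted p = 0.245). The Pmm2 probe, too, was not the brightest tested probe of its gene. The nearest to Mup5 (ILMN_3158509) were Apon, an apolipoprotein (r = 0.983, rho 0.974), Kif1b, a kinesin motor (0.956, rho 0.859), and Ugt2b1, a UDP-glucuronosyltransferase (0.942, rho 0.879).

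Apon read 9.29, 9.30, 8.46, 8.69, 8.76, 7.96 and 8.75 in Trim28MommeD9/+, against 8.99, 10.13, 9.94, 9.69, 9.86, 9.69, 10.67, 10.84 and 10.28 in Trim28+/+. As for Mup5, replicate 1 was the only Trim28+/+ array inside the Trim28MommeD9/+ range. Apon was lower in Trim28MommeD9/+ by a log2 fold change of -1.27 (standard error 0.23, limma adjusted p = 0.0016). Kif1b (-0.80, adjusted p = 0.00728) and Ugt2b1 (-1.11, adjusted p = 0.0035) were also lower by limma, and the call of Kif1b was lost with the replicate block (0.0691) and presumptive technical pairs (0.0572). This Kif1b probe was not the brightest tested probe of its gene, so the call is that of a probe rather than of the gene. With background set blocked, the 3 genes stood at -0.25, 0.13 and 0.19, with adjusted p of 0.957 to 0.974.

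**Figure D2:**
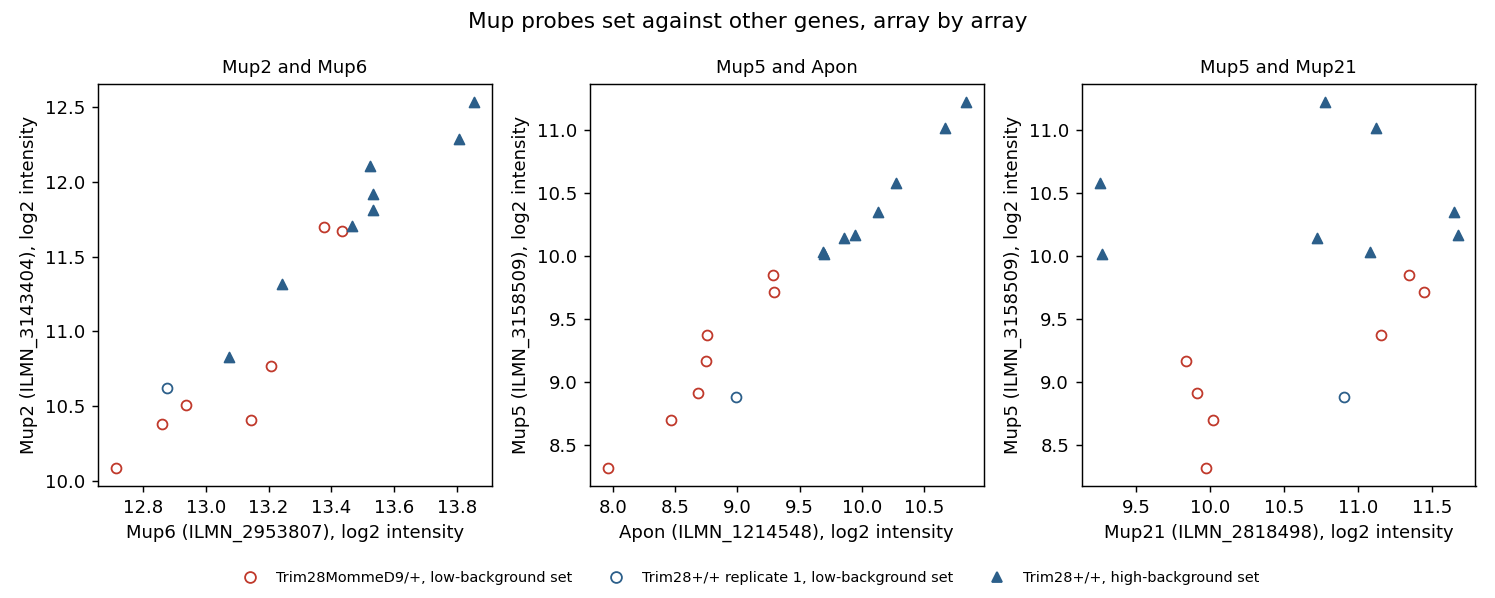
Normalized log2 intensity of Mup2 (ILMN_3143404) against Mup6, and of Mup5 (ILMN_3158509) against Apon and against Mup21, 1 point per array, with symbols for genotype and background set as in the plot of the Mup2 and Mup5 probes. The points of Mup2 with Mup6 and of Mup5 with Apon form narrow bands that hold both genotypes. Those of this Mup5 probe with Mup21 are scattered (r = 0.269 over deviations).

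Of 25 genes of growth hormone signalling, 19 were tested, and 3 were higher and 3 lower in Trim28MommeD9/+. Their median log2 fold change was 0.05, as over all genes (0.05), where 10.6% of genes were higher and 11.6% lower. The transcripts that fell included Socs2, a STAT5 target that restrains growth hormone signalling, and the one with the largest rise in the list was Bcl6, a repressor that opposes STAT5 and is itself lowered by growth hormone in liver. The other 13 genes tested did not pass. Among them were Igf1 (log2 fold change 0.08, limma adjusted p = 0.417), Igfals (-0.02, 0.831), the receptor gene Ghr (-0.17, 0.171) and Socs3 (-0.07, 0.689). Stat5b, the main transducer, was not detected by the filter.

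Bcl6 read 10.56, 10.62, 10.63, 9.78, 10.60, 10.60 and 9.86 in Trim28MommeD9/+, against 7.75, 9.22, 9.25, 10.05, 7.55, 9.68, 10.30, 7.64 and 9.78 in Trim28+/+. Of the Trim28MommeD9/+ arrays, 5 of 7 lay above every Trim28+/+ array, and replicates 1, 5 and 8 were far lower than the other Trim28+/+ arrays. Bcl6 was 2.56-fold higher in Trim28MommeD9/+ (log2 fold change 1.35, standard error 0.38, limma adjusted p = 0.0164). Socs2 read 7.68, 7.76, 8.60, 9.45, 9.12, 8.62 and 9.56 in Trim28MommeD9/+, against 10.80, 9.08, 8.91, 9.62, 10.86, 9.56, 9.75, 11.02 and 9.43 in Trim28+/+. The same Trim28+/+ replicates, 1, 5 and 8, were the highest, and replicates 5 and 8 were a presumptive technical pair that may share a mouse. Socs2 was 2.31-fold lower in Trim28MommeD9/+ (log2 fold change -1.21, standard error 0.35, limma adjusted p = 0.0179). Its call was lost with a robust fit (adjusted p = 0.112), array weights (-0.83, adjusted p = 0.0673) and the replicate block (0.0572), and that of Bcl6 with the replicate block (0.0758).

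Cish, another STAT5 target and feedback inhibitor, was singled out after its values had been seen. It read 5.27, 5.36, 6.00, 7.07, 6.02, 5.82 and 7.15 in Trim28MommeD9/+, against 8.82, 6.77, 6.92, 6.17, 8.67, 7.23, 6.07, 8.50 and 7.12 in Trim28+/+ (log2 fold change -1.27, standard error 0.41, limma adjusted p = 0.0345). Replicates 1, 5 and 8 were again the high Trim28+/+ arrays. The call of Cish was lost without Trim28MommeD9/+ replicate 1 (adjusted p = 0.0699), 2 (0.0688), 3 (0.0538), 5 (0.0595) or 6 (0.0648) and without Trim28+/+ replicate 5 (0.0606) or 8 (0.0658). It was also lost with a robust fit (adjusted p = 0.0932), array weights (0.0698), the replicate block (0.179) and presumptive technical pairs (0.0504). Of the other called genes in the list, Stat3, a transducer of cytokine signals, was lower (-0.30, adjusted p = 0.0146), and Ptpn6, a phosphatase that acts on JAK kinases, was higher (0.28, adjusted p = 0.0161). Both calls were lost with the replicate block (adjusted p = 0.0678 for Stat3 and 0.0637 for Ptpn6) and with presumptive technical pairs (0.105 for Stat3 and 0.0553 for Ptpn6). Jak2, the kinase bound to the receptor, was higher (0.22, adjusted p = 0.0421), was named after its value had been seen, and kept its call in 4 of 16 leave-one-out fits (adjusted p up to 0.0944, without Trim28MommeD9/+ replicate 5). It was also lost with the replicate block (adjusted p = 0.129), presumptive technical pairs (0.15), the authors' scaled values (0.305) and no filter on dim probes (0.111).

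By Pearson r, correlations of the 2 called Mup probes with Bcl6, Socs2 and Cish were weaker than those with Hnf4a and with Trim28. Hnf4a encodes a nuclear receptor of hepatocyte identity. Over the deviations, Mup2 (ILMN_3143404) had an r of 0.036 with Bcl6, -0.31 with Socs2 and -0.33 with Cish, and Mup5 (ILMN_3158509) had 0.20, -0.23 and -0.34. With Hnf4a the r was 0.498 for this Mup2 probe and 0.656 for this Mup5 probe, and with Trim28 it was -0.57 for Mup2 and -0.70 for Mup5. Trim28 varied less in Trim28MommeD9/+ (SD 0.07) than in Trim28+/+ (SD 0.23). Its highest value was on Trim28+/+ replicate 1 (9.39), the lowest Trim28+/+ array for both called Mup probes. How far this array sets the r with Trim28 was not tested. By Spearman's rho the order against Hnf4a did not hold for this Mup2 probe (Hnf4a 0.326, Socs2 -0.350, Cish -0.468). For this Mup5 probe it held (Hnf4a 0.432, Socs2 -0.224, Cish -0.318). Trim28+/+ replicate 1 was among the lowest Trim28+/+ arrays for Bcl6 and the highest of all arrays for Cish, where for Mup5 it was the lowest Trim28+/+ array. With background set blocked, Bcl6 stood at 2.63, Socs2 at -2.12 and Cish at -2.72, in the same direction as without it, each with an adjusted p of 0.565 from limma. Mup2 and Mup5 changed sign in that fit.

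**Figure D3:**
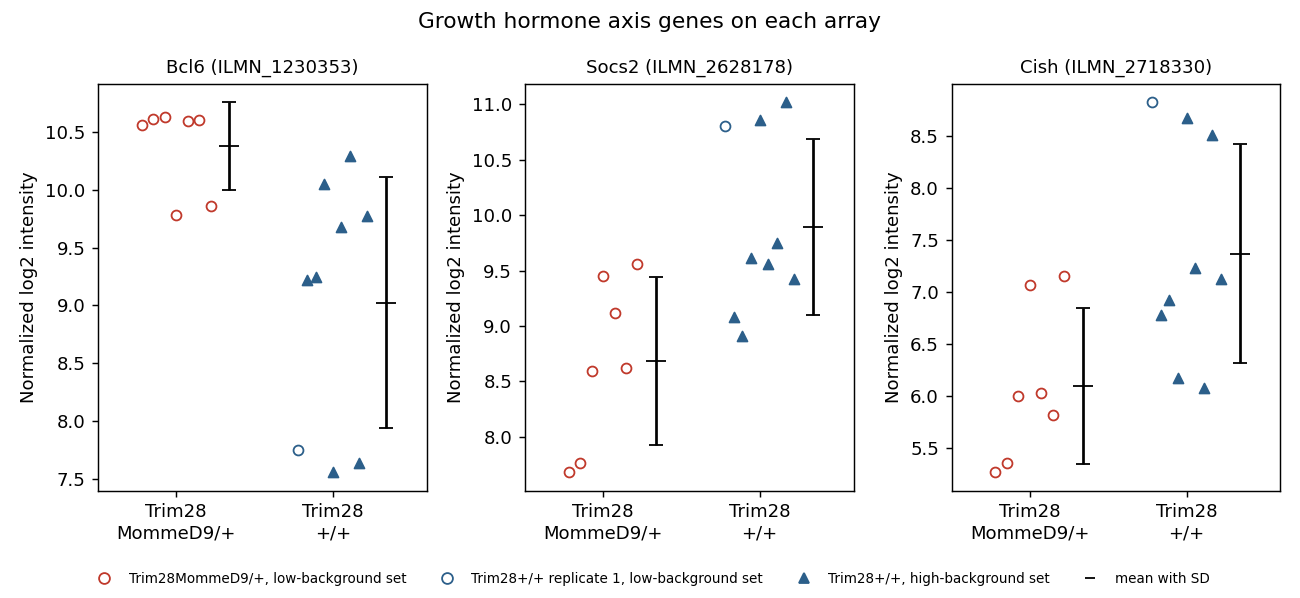
Normalized log2 intensity of Bcl6, Socs2 and Cish on each array (vertical axes, a separate scale in each panel), with Trim28MommeD9/+ left and Trim28+/+ right, open circles for the low-background set, filled triangles for the high-background set and bars for the mean ± SD. Bcl6 is at 9.78 or more on every Trim28MommeD9/+ array, and Trim28+/+ replicate 1 stands apart from the Trim28MommeD9/+ arrays for all 3 genes.

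Of 34 other male-biased genes of liver, 24 were tested, and 0 were higher and 4 lower in Trim28MommeD9/+, with a median log2 fold change of 0.01. The 4 were Ugt2b1 (-1.11, limma adjusted p = 0.0035), the serpin Serpina1e (-0.62, adjusted p = 0.00298), the complement gene C8a (-0.62, adjusted p = 0.0141) and the sulfotransferase gene Sult5a1 (-0.36, adjusted p = 0.0158). The Serpina1e probe was dim, with a mean of 5.38 in Trim28MommeD9/+ (detected on 6 of 7 arrays) and 6.00 in Trim28+/+ (9 of 9). Over all genes tested, 11.6% were called lower and 10.6% higher. The call of C8a was lost with the replicate block (adjusted p = 0.0894) and presumptive technical pairs (0.0866), as was that of Sult5a1 (0.0563 with the block and 0.0636 with the pairs). Of 20 female-biased genes tested, 2 were higher and 1 lower, with a median of 0.01. Cyp2b10, a cytochrome P450 induced through the receptor CAR, was higher (1.22, limma adjusted p = 0.0101), as was the water channel gene Aqp8 (0.46, adjusted p = 0.0326). Hao2, a peroxisomal hydroxyacid oxidase, was lower (-0.86, adjusted p = 0.0479). For Cyp2b10 the Trim28+/+ arrays were split. Replicates 6 and 9, a presumptive technical pair, read 8.60 and 8.76, above every Trim28MommeD9/+ array, and the other Trim28+/+ arrays read 6.39 to 6.95. Aqp8 kept its call in 9 of 16 leave-one-out fits and Hao2 in 6 of 16, with adjusted p up to 0.075 (without Trim28MommeD9/+ replicate 6) and 0.103 (without Trim28MommeD9/+ replicate 2). Both were lost with the replicate block (adjusted p = 0.0802 for Aqp8 and 0.123 for Hao2) and presumptive technical pairs (0.0654 for Aqp8 and 0.0919 for Hao2). All arrays were from males of 4 weeks, so whether the sex bias of these lists was in place at this age was not tested. Female-biased Cyp2b9 was bright (11.29 in Trim28MommeD9/+ and 11.21 in Trim28+/+), as was male-biased Hsd3b5 (11.49 and 11.52). Slco1a1 and Moxd1 of the male-biased list were below the filter.

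Of 13 factors known to act on Mup or male-biased genes that were tested, 1 was lower and 0 higher, where 11.6% of all genes tested were lower and 10.6% higher. Hnf4a was lower (-0.55, limma adjusted p = 0.00376), with 6 of 7 Trim28MommeD9/+ arrays below every Trim28+/+ array. Trim28+/+ replicate 1 was its lowest Trim28+/+ array (9.53), inside the Trim28MommeD9/+ range. With background set blocked, an estimate that rests on this 1 array, Hnf4a stood at -0.14. The other 12 factors did not pass. Rsl1, a KRAB zinc finger gene of the Rsl locus, was not detected on any array. Zfp457, Zfp458, Zfp459, Nr3c1, Thra, Thrb and Onecut1 were likewise below the filter.

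Among relatives of the lipocalin fold other than Mup, 11 genes were tested, and 2 were lower and 0 higher, where 11.6% of all genes tested were lower and 10.6% higher. Rbp4, which carries retinol in plasma, read 9.96, 9.85, 9.04, 8.86, 8.97, 8.66 and 8.95 in Trim28MommeD9/+, against 8.99, 10.87, 10.76, 10.66, 10.59, 10.45, 12.11, 12.00 and 10.74 in Trim28+/+ (log2 fold change -1.61, standard error 0.34, limma adjusted p = 0.00328). As for Mup5, replicate 1 was the only Trim28+/+ array inside the Trim28MommeD9/+ range, and Rbp4 had an r of 0.931 with Mup5 (ILMN_3158509) over deviations. The other was Fabp5, a fatty acid binding protein gene (-0.83, adjusted p = 0.0207), lost without Trim28MommeD9/+ replicate 5 (adjusted p = 0.0517), with a robust fit or array weights (0.0573 each), with the replicate block (0.0762) and with presumptive technical pairs (0.0687). Of 33 genes of secreted liver proteins tested, 13 were lower and 0 higher, with a median of -0.03. The smallest p were those of Itih2 (-1.17, limma adjusted p = 0.00135), Alb (-1.21, adjusted p = 0.00146) and Apoh (-0.80, adjusted p = 0.00221). Itih2 encodes a hyaluronan-binding plasma protein and Apoh a phospholipid-binding plasma protein. The Alb probe was dim and detected on 5 of 7 Trim28MommeD9/+ arrays. With background set blocked, an estimate that rests on Trim28+/+ replicate 1, Itih2 stood at -0.03, Alb at 0.36 and Apoh at 0.11.

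Markers of liver cell types were read beside the Mup values, where 11.6% of all genes tested were lower and 10.6% higher. Of 10 hepatocyte markers tested, 6 were lower in Trim28MommeD9/+ and 0 higher. Among the 6, Tdo2 (detected on 2 Trim28MommeD9/+ and 9 Trim28+/+ arrays) and Pck1 (2 and 7) passed the filter through Trim28+/+ only, and Alb was dim. Of the 8 markers detected on at least 3 arrays of each genotype, 4 were lower. The summed intensity of the 10 (normalized, linear, less the offset) was 91644 to 98938 in Trim28MommeD9/+ and 96021 to 104361 in Trim28+/+, which overlap. Of 7 Kupffer cell and macrophage markers tested, 4 were higher and 0 lower, with overlapping sums of 1580 to 1976 in Trim28MommeD9/+ and 1228 to 1619 in Trim28+/+. Tat and Fgb of the hepatocyte list and Cd5l of the Kupffer cell list were not detected. Sinusoidal endothelial markers were 1 higher and 2 lower of 7, with overlapping sums of 4203 to 4725 in Trim28MommeD9/+ and 4494 to 5169 in Trim28+/+, and Kdr was not detected. Of 6 stellate cell markers tested, the call was that of Col3a1 alone, which was detected on 0 of 7 Trim28MommeD9/+ and 8 of 9 Trim28+/+ arrays and so entered through Trim28+/+ only. None of 3 erythroid markers was called. No cholangiocyte or lymphocyte marker passed the filter. The part of these values in the Mup values was not tested.

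The spread of each member between arrays was compared as well, by limma on absolute deviations from the genotype median. The difference in spread (Trim28MommeD9/+ minus Trim28+/+, log2 scale) was 0.0005 and -0.01 for the Mup2 probes and -0.02 and -0.14 for the Mup5 probes, with adjusted p of 0.784 to 0.998. No probe of the 10291 passed this test (0%). On the authors' linear values the coefficient of variation of Mup2 (ILMN_3143404) was 50.2% in Trim28MommeD9/+ and 40.7% in Trim28+/+, and that of Mup5 (ILMN_3158509) was 38.1% in Trim28MommeD9/+ and 43.6% in Trim28+/+. A p above the threshold does not show that the spreads are equal.

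**Figure D4:**
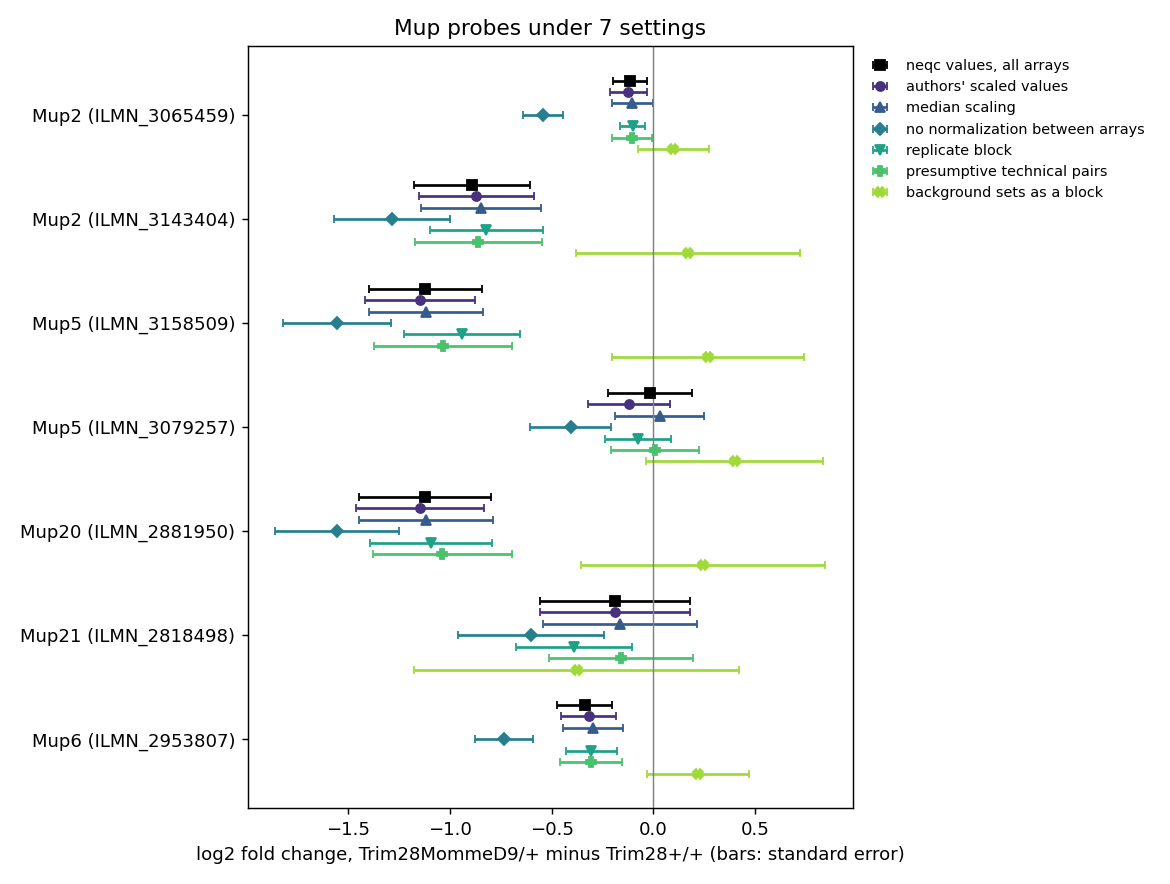
Log2 fold change of each tested Mup probe, Trim28MommeD9/+ minus Trim28+/+ (horizontal axis, bars show the standard error), under 7 settings. With background set blocked, 6 of the 7 probes lie right of 0 (0.10 to 0.40) and Mup21 lies at -0.38. Without normalization between arrays every probe lies further left than on the neqc values.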

How the data were processed

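The 16 BeadChip arrays of liver RNA were grouped by the genotype in the labels. The authors deposited uncorrected mean bead intensity per probe and a detection p-value beside it. A second deposited table holds intensity values that follow the first by a straight line on each array (a constant subtracted, then scaled). BeadStudio and GenomeStudio are named by the study, with no version in the sources used here. All columns of both tables were mapped to samples.

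Symbols came from the platform annotation, updated through the Entrez identifier (23962 of 25697 probes), and 1719 probes had none. The first table went through neqc (normexp background correction from detection p-values, quantile normalization, log2, offset 16) in limma 3.58.1 under R 4.3.3. Probes with a detection p under 0.01 on at least 3 arrays were kept (10291 probes, 7302 genes, 9186 to 10262 probes detected per array). Genotypes were compared per probe by limma (linear model, moderated statistics, intensity trend), with Benjamini-Hochberg adjustment over all probes and a threshold of 0.05. Gene lists used the probe with the highest mean per gene. Named genes were all member probes, the 3 most alike genes per member, up to 4 genes per list with the smallest p, and Trim28, and any others are marked as seen first. The members, lists and tests were chosen with earlier results of these data known. Sequences and coordinates came from RefSeq tables of GRCm38.p6. Motifs and plots used Python 3.11.15, NumPy 2.4.6, pandas 2.3.3, SciPy 1.17.1, Biopython 1.88 and Matplotlib 3.10.9. Both models were tested on simulated data. Alternatives covered the background correction, normalization, offset, filter, probe choice, fit, blocks and each array left out. The number of arrays limits the precision.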

Additional observations from a re-analysis of the deposited data

How the results depend on the processing

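The number of member probes called lower, 2 on the values reported, was 3 without normalization between arrays, 1 with 1 probe per gene, 0 with the replicate block, 0 with presumptive technical pairs, 0 with background set blocked, and 1 to 2 with any array left out. It was 0 for called higher under every setting. The replicate numbers were not taken as pairs, since arrays of the same number had correlations of deviations from -0.386 to 0.469 and 2 of 7 correlated best with their own number. Across all probes the replicate block called 245 higher and 604 lower, and presumptive pairs 271 and 543, against 1141 and 1259. The pairs had a consensus correlation of 0.500. Median scaling called 1661 higher and 1059 lower, the authors' scaled values 536 and 1615, and no normalization 9 and 7555, with the median of all probes at -0.36.

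With background set blocked, fold changes on the log2 scale turned to 0.10 for Mup2 (ILMN_3065459), 0.17 for Mup2 (ILMN_3143404), 0.27 and 0.40 for Mup5 (ILMN_3158509 and ILMN_3079257), 0.24 for Mup20 and 0.22 for Mup6. It turned likewise to 0.15 for Serpina1e, 0.19 for Ugt2b1, 0.13 for C8a, 0.20 for Rbp4, 0.36 for Alb, 0.11 for Apoh, 0.28 for C9, 0.15 for Pmm2 and 0.13 for Kif1b. That estimate rests on 1 Trim28+/+ array. Ptpn6 turned to -0.16 and Jak2 to -0.20 without normalization. The dim Mup5 probe turned to 0.031 with median scaling and 0.0068 with presumptive technical pairs, and lay between -0.13 and 0.060 with any array left out. The difference in spread of the bright Mup2 probe was -0.028 with median scaling. With any array left out, the spread differences lay between -0.024 and 0.029 (Mup2 ILMN_3065459), -0.14 and 0.082 (Mup2 ILMN_3143404), and -0.089 and 0.089 (Mup5 ILMN_3158509). The cause of these changes was not tested. Low signal limits the dim Mup5 probe, and Mup5 ILMN_1226884 gave no value.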
